A study of Mus musculus with 24 samples.

Results

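The 3 libraries made from hippocampal CA1 36 h after pilocarpine-induced status epilepticus (SE) were compared with the 3 control (Ctr) libraries of the same time, 6 of the 24 libraries of the study. They were taken by treatment and time as the sample labels give them, with no measured value in that rule. The comparison and the gene lists were chosen with earlier results of these data known, so the list counts below are descriptions. All 18153 genes that passed a filter on low counts were tested. The study asked which genes of CA1, the output field of the hippocampus, change in the first days after SE, when a brain that was healthy begins to become epileptic. All 6 libraries came from adult C57Bl/6N mice (at least 60 days old and at least 20 g) that were given 1 mg/kg scopolamine methyl nitrate, a muscarinic blocker that stays outside the brain. After 20 min, the mice of the SE group received 335 mg/kg pilocarpine hydrochloride, a muscarinic agonist that starts the seizures, and those of the Ctr group saline. Diazepam (4 mg/kg) was given 40 min after the onset of SE, and the controls were otherwise handled alike. Only pilocarpine-treated mice that went into SE were kept, so the SE group holds responders alone. CA1 was cut by hand from 400 µm coronal slices, and poly(A) RNA of the whole piece was sequenced. In such bulk RNA, fewer cells of a type and less RNA per cell cannot be told apart. The labels do not say whether each library is 1 mouse, so the p-values measure the spread between these libraries.

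SE is a seizure that does not stop by itself. In rodents it is followed by loss of vulnerable hippocampal neurons, by activation and division of microglia, the resident macrophages of the brain, and by reactive astrocytes, which rebuild their cytoskeleton and the matrix around them. Neurons meanwhile express activity-dependent genes and alter their ion channels and receptors, and spontaneous seizures emerge after a latent period.

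The totals were between 12015641 and 16955333 counts in the SE libraries and between 12619488 and 20063548 in the Ctr libraries. On the first principal component of the 6 libraries (64.2% of the variance) the 3 SE libraries lay apart from the 3 Ctr libraries, and on the second (18.3%) SE replicate 3 lay apart from all others. This library carried genes of sensory ganglia and their myelin, which are not part of the hippocampus. The 11 genes of that list summed to 971 CPM (counts scaled to the library size) there, against 12.3 and 13.3 CPM in SE replicates 1 and 2 and 11.8, 29.9 and 73.1 CPM in the Ctr libraries. Prph, a neurofilament protein of peripheral neurons, had 0.360, 3.08 and 15.8 CPM in Ctr replicates 1, 2 and 3 and 0.148, 0.473 and 181 CPM in SE replicates 1, 2 and 3. None of the 11 genes was called. A second difference lay in the other SE libraries, where Prox1, the defining factor of dentate granule cells, had 46 and 56.8 CPM (replicates 1 and 2) against 15.8 CPM in replicate 3 and 10.8 to 12.9 CPM in the controls. The 8 dentate genes summed to 249, 271 and 141 CPM after SE and to 122 to 144 CPM in the controls, and Pdzd2 (1.48 ± 0.33) was the 1 DEG among them. The pyramidal marker Fibcd1, the interneuron gene Gad1 and the astrocyte gene Slc1a2 were present in all 6 libraries. SE replicate 3 has a label number from another range (92 to 104) than the other 5 libraries (109 to 122), so results without it are also results within 1 range. The part of ganglion and dentate RNA in the results that follow was not tested.

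**Figure D1:**
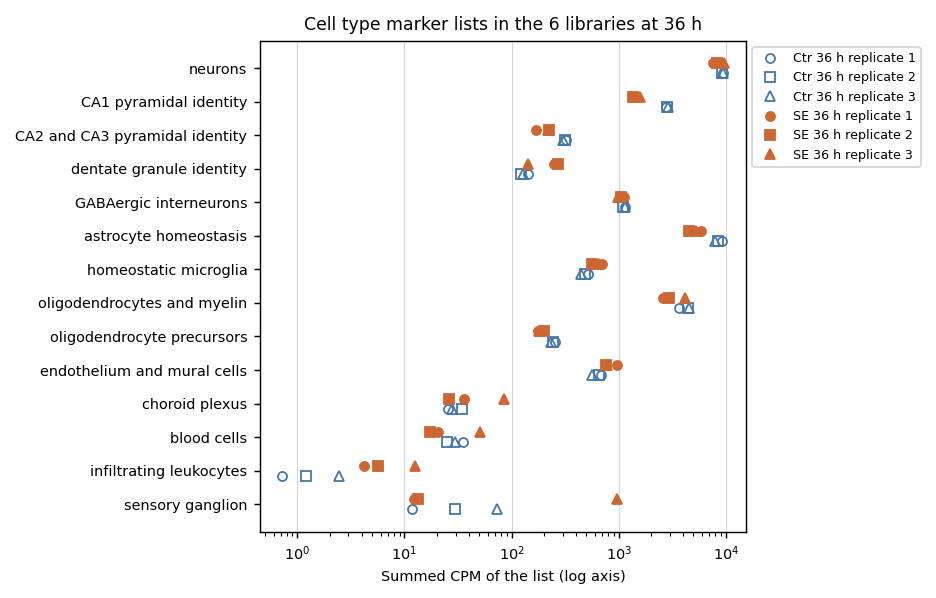
Summed level of 14 cell type marker lists in each of the 6 libraries, in CPM on a log axis, with open blue symbols for Ctr and filled orange symbols for SE and 1 symbol shape for each replicate number. SE replicate 3 stands alone for the sensory ganglion list, at 971 CPM against 73.1 CPM or less in the other 5 libraries.

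At 36 h, 2287 genes were upregulated and 1594 downregulated (12.6% and 8.78% of the genes tested, 21.4% together). These shares are the background for every count of a gene list at 36 h below. Differentially expressed genes (DEGs) are those with a log2 fold change (log2FC) of 0.66 or more in either direction and an adjusted p (edgeR's quasi-likelihood test) no higher than 0.05. A log2FC is SE minus Ctr and is given with its standard error. The fit held 1 RUVr factor, an axis of unwanted variation estimated from the residuals of all 24 libraries. Its largest values lay outside the comparison, at -0.383, 0.797 and -0.374 in Ctr 72 h replicates 1, 2 and 3. In the 6 libraries compared it lay between -0.071 and 0.118. Without the factor 2080 genes were up and 1422 down at 36 h. Where a call ended under another setting, such as limma-voom, counts thinned to equal totals or a term for the label-number range, the setting stands after the gene with the log2FC it gave. Of 47 named genes that were not called, 9 were called under 1 alternative or more. These were Calca, Fos, Mbp, Nfkb1, Prox1, Pvalb, Rela, Sst and Wfs1. The 3 SE libraries did not overlap with the 3 Ctr libraries in 3825 of the 3881 DEGs (98.6%). Over all genes tested, 25.8% had the 3 SE libraries above and 26.2% below the 3 Ctr libraries. Increases reached further than decreases: 459 DEGs had a log2FC of at least 3, and 74 had one of -3 or less. The median log2FC of all genes was 0.0033. With scaling by library total alone, that median moved to 0.127 and the upregulated share of the DEGs rose from 58.9% to 69.9% (2759 up and 1188 down). Without SE replicate 3, 2107 genes were up and 1415 down, and 3207 of the 3881 DEGs (82.6%) were called again, none in the opposite direction.

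The 12 genes described first had the largest increases among DEGs whose log2 CPM averaged 1 or more and whose groups did not overlap. Timp1, an inhibitor of matrix metalloproteinases, had 164, 168 and 139 CPM after SE against 0.575, 0.157 and 0 CPM in the controls (log2FC 9.3 ± 0.49, adjusted p = 2.5e-10). Spp1, which codes for the secreted glycoprotein osteopontin, had 3.96, 5.64 and 6.16 CPM in the controls and 786, 1077 and 746 CPM after SE (log2FC 7.41 ± 0.56, adjusted p = 3.46e-08). Cd44, the surface receptor for hyaluronan, had 303, 356 and 303 CPM after SE against 2.45, 2.5 and 3.94 CPM in the controls (6.81 ± 0.44). Msr1, a scavenger receptor of macrophages, had 0.432, 0.417 and 0 CPM in the controls and 56.5, 50.1 and 39.3 CPM after SE (7.27 ± 0.57). Tgm1, a transglutaminase that crosslinks proteins, and Lcn2, a siderophore-binding protein, rose by 6.55 ± 0.55 and 6.47 ± 0.71. Ptx3, a soluble pattern recognition protein (6.68 ± 0.64), and Tnn, the matrix protein tenascin-N (6.89 ± 0.59), belonged to the same 12, as did the chemokines Cxcl10 (7.85 ± 0.87) and Ccl3 (6.94 ± 0.81). The last 2, Krt75 and Cdsn, code for a keratin and for corneodesmosin, proteins best known from hair and skin. Krt75 had 13, 57.5 and 13.7 CPM after SE against 0.0719, 0 and 0.329 CPM in the controls (7.7 ± 0.96), so that SE replicate 2 lay above the others. Cdsn had 0.216, 0.157 and 0.0822 CPM in the controls and 15, 19.6 and 13.6 CPM after SE (6.62 ± 0.52). Since the controls were close to 0 for most of these genes, the size of such a log2FC depends on very few control counts. The log2FC became 10.59 for Timp1, 8.82 for Cxcl10 and 7.91 for Ccl3 without Ctr replicate 1, 8.0 for Lcn2, 6.21 for Ccl3 and 6.97 for Krt75 without Ctr replicate 2 and 9.35 for Krt75 without Ctr replicate 3. It was 6.82 for Krt75 without SE replicate 2. The log2FC was 7.55 for Ccl3 with thinned counts.

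Among the same DEGs, the largest decrease was that of Otof, which codes for the calcium sensor otoferlin, known from transmitter release in hair cells. Otof had 0.296, 0.473 and 0.342 CPM after SE against 20.6, 18.5 and 20.9 CPM in the controls, and fell (log2FC -5.73 ± 0.69, adjusted p = 3.86e-06). Ntsr1, a receptor of the peptide neurotensin, had 8.99, 10.1 and 9.28 CPM in the controls and 0.593, 0.394 and 0.285 CPM after SE (-4.48 ± 1.1). Epop, a partner of the Polycomb complex PRC2, had 3.56, 4.41 and 3.59 CPM after SE against 56.7, 55 and 57.8 CPM in the controls (-3.88 ± 0.3). In each of these 3 genes the SE libraries lay close together and far below the controls. Gpr12, an orphan receptor (-3.69 ± 0.65), Epha8, an ephrin receptor (-3.78 ± 0.71), Cyp4f15, a fatty acid hydroxylase (-3.71 ± 0.25), and Kirrel2, an adhesion molecule (-3.29 ± 0.46), also fell, as did Lefty1, a secreted inhibitor of Nodal signalling (-3.54 ± 0.69), and Ankrd63 (-3.56 ± 0.53). The remaining 3 were the non-coding or unclassified genes 6330420H09Rik (-4.03 ± 0.75), Gm48408 (-3.82 ± 0.47) and B230303A05Rik (-3.29 ± 0.54). Gm48408 (positions 15943575 to 15944705) and B230303A05Rik (15989490 to 15989967) lie on the same strand of chromosome 13 of GRCm39, and Inhba, which rose, starts at 16186373 on the other strand. The log2FC became -4.06 for B230303A05Rik without SE replicate 1 and -4.66 for Lefty1 and -2.67 for B230303A05Rik without SE replicate 3. The log2FC was -4.66 for Lefty1 and -2.66 for B230303A05Rik without both SE 36 h replicate 3 and Ctr 72 h replicate 2 and -4.07 for B230303A05Rik with limma-voom.

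**Figure D2:**
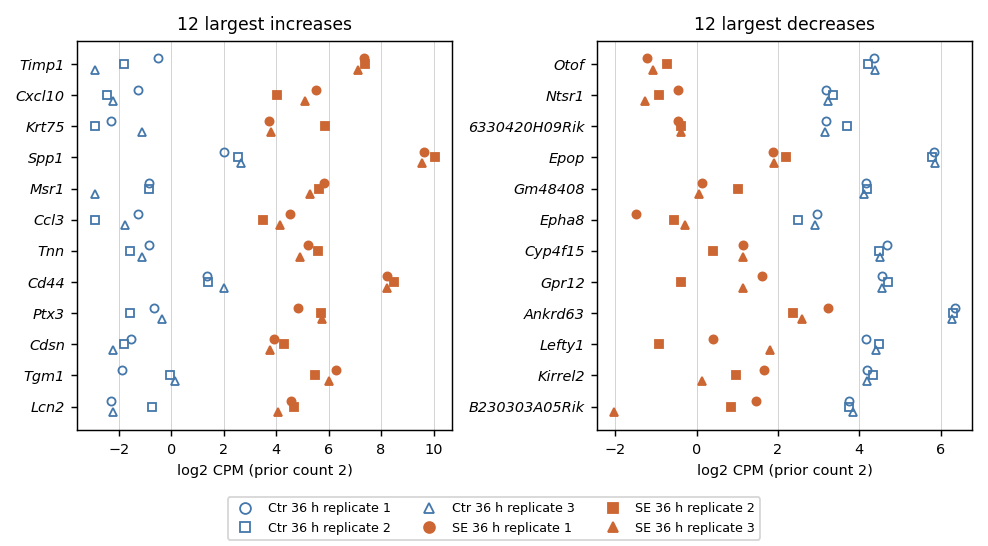
Level of the 12 genes with the largest increases (left) and the 12 with the largest decreases (right) in each library, as log2 CPM with a prior count of 2, in order of the absolute log2FC. Blue open symbols are Ctr and orange filled symbols SE libraries, and the genes were chosen among DEGs whose SE and Ctr libraries do not overlap. Timp1 is at the top on the left and Otof on the right.

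Nearly the whole list of reactive astrocyte genes rose: 21 of the 22 tested were upregulated and none was downregulated (background 12.6% and 8.78%), with a median log2FC of 4.78. Gfap, the intermediate filament that defines reactive astrocytes, had 309, 252 and 245 CPM in the controls and 6058, 4109 and 5829 CPM after SE (log2FC 4.31 ± 0.25, adjusted p = 2.85e-10). Vim, a second intermediate filament, had 1406, 1276 and 1314 CPM after SE against 43.2, 42.1 and 38.8 CPM in the controls (5.02 ± 0.3), and Serpina3n, a secreted protease inhibitor, had 52.7, 61.9 and 57.4 CPM in the controls and 1245, 1009 and 1151 CPM after SE (4.31 ± 0.4). None of these overlapped between the groups. Tm4sf1, Cd109, Emp1 and Hspb1, membrane proteins and a small heat shock protein, rose by 5.64 ± 0.33, 5.83 ± 0.77, 5.0 ± 0.61 and 5.13 ± 0.44. Steap4, a metalloreductase, was the member not called (0.593, 0.552 and 2.73 CPM after SE against 0.0719 to 0.626 CPM). The genes of the resting astrocyte moved in both directions, with 4 of 16 upregulated and 7 downregulated. Slc6a11, the GABA transporter GAT-3, had 43.4, 24.5 and 44.5 CPM after SE against 224, 198 and 194 CPM in the controls (-2.45 ± 0.29). Slc1a2, the glutamate transporter GLT-1, had 3155, 2787 and 2530 CPM in the controls and 1265, 1137 and 1044 CPM after SE (-1.3 ± 0.13), and Gja1, the gap junction protein connexin 43, fell by 1.32 ± 0.21. Aqp4, the water channel of astrocyte endfeet, went the other way with 519.6, 479 and 480.2 CPM after SE against 160.1, 122 and 108 CPM in the controls (1.92 ± 0.23), as did the potassium channel Kcnj10 (0.95 ± 0.21). Without SE replicate 3 these lists held 21 and 4 genes up and 0 and 7 down. The log2FC became 6.8 for Cd109 without Ctr replicate 3 and 4.35 for Emp1 without SE replicate 2.

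Of 29 genes of matrix and proteolysis, 21 were upregulated and 2 downregulated (median 1.72). Among the proteases, Adamts1, which cleaves proteoglycans, had 13.3, 10.5 and 6.66 CPM in the controls and 202, 234 and 153 CPM after SE (4.26 ± 0.36). Mmp12, the macrophage elastase, was at 0 in all 3 Ctr libraries and at 2.44, 1.26 and 7.29 CPM after SE, at least 61-fold higher against a floor of 3 counts over the control group. Mmp3, or stromelysin, was likewise at 0 in the controls and had 0.445, 1.97 and 0.228 CPM after SE, at least 12.1-fold higher against that floor. Such floors cover counting error only. In the plasminogen system Plaur, the urokinase receptor (5.39 ± 0.6), and Plau, urokinase itself (2.84 ± 0.43), rose, while Plat, tissue plasminogen activator, was not called (0.45 ± 0.22). Has2, which makes hyaluronan, rose by 4.93 ± 0.61, and Tnc, the matrix protein tenascin-C, by 3.65 ± 0.42. Of the 4 lecticans, the core proteins of perineuronal matrix, Acan (3.05 ± 0.74), Vcan (1.04 ± 0.17) and Ncan (1.0 ± 0.14) rose and Bcan fell. Bcan had 37.9, 35.1 and 49.7 CPM after SE against 399.9, 358 and 331 CPM in the controls (log2FC -3.15 ± 0.19, adjusted p = 3.41e-10). Hapln1, the link protein that ties lecticans to hyaluronan, fell as well (-2.08 ± 0.25). The gelatinases Mmp2 (0.06 ± 0.38) and Mmp9 (-0.34 ± 0.48) and the inhibitor gene Timp2 (-0.18 ± 0.21) were not called.

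The 250 bases before the start of Mmp3 and Mmp12 are shown because both genes went from 0 to a measured level and both hold the AP-1 motif TGANTCA, the site of Fos and Jun dimers, at nearly the same distance from the start (46 and 44 bases). They were read from GRCm39 at the gene starts of GENCODE M39, lie on the plus strand at chr9:7445572-7445821 and chr9:7347124-7347373, and have the motif in capitals.
Mmp3: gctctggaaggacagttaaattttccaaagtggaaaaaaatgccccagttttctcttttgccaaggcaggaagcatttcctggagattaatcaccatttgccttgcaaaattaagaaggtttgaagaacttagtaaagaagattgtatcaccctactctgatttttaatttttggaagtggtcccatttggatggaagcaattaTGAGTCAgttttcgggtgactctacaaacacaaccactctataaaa
Mmp12: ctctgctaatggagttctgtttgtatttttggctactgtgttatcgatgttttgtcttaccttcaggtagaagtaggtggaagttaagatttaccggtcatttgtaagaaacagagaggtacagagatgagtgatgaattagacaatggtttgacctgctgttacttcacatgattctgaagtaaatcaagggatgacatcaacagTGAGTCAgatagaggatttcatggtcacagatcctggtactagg
The motif, searched on both strands, was present in 8.25% of the 2219 windows of upregulated DEGs, in 4.98% of the 1547 windows of downregulated DEGs and in 5.10% of all 17568 windows. In the matrix list 17.2% of 29 windows held it.

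Of 18 genes of reactive, phagocytic microglia, 15 were upregulated and 1 was downregulated (median 2.95). Besides Spp1, Lilrb4a, an inhibitory receptor (6.6 ± 0.77), Ch25h, which makes 25-hydroxycholesterol (5.63 ± 0.57), Lgals3, or galectin-3 (5.44 ± 0.53), and Cst7, a cathepsin inhibitor (5.4 ± 0.59), rose. Cd68, a lysosomal glycoprotein of phagocytes, had 10.9, 9.19 and 7.31 CPM in the controls and 69.2, 61.2 and 79.3 CPM after SE (2.98 ± 0.28). Apoe, which codes for apolipoprotein E, was the 1 that fell. It had 566, 474 and 824 CPM after SE against 1289, 1193 and 1237 CPM in the controls (log2FC -1.0 ± 0.18, adjusted p = 0.000232). Which cells the Apoe RNA came from was not tested. Every SE library was below every control for Apoe. Of the 18 lysosomal genes, 12 were upregulated and none was downregulated, among them the cathepsins Ctsc (3.03 ± 0.17), Ctsz (2.47 ± 0.16) and Ctsd (2.1 ± 0.16). The complement list had 12 of 16 genes upregulated, among them the receptors C5ar1 (5.2 ± 0.45) and C3ar1 (4.73 ± 0.32), and the 3 chains of C1q, C1qa, C1qb and C1qc, rose by 2.17 ± 0.17, 2.12 ± 0.18 and 2.04 ± 0.17. The log2FC became 6.66 for Lgals3 and 5.8 for C5ar1 without Ctr replicate 3.

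Among 13 genes of homeostatic microglia, 4 rose and 4 fell. Siglech, a sialic acid binding lectin, had 20.9, 22.3 and 20.0 CPM in the controls and 2.82, 1.89 and 2.34 CPM after SE (log2FC -3.16 ± 0.3, adjusted p = 1.29e-07). P2ry12, the purine receptor that steers microglial processes, had 12.3, 8.98 and 13.4 CPM after SE against 58, 51.1 and 41.9 CPM in the controls (-2.12 ± 0.23). Slc2a5, a fructose transporter, and Selplg, a selectin ligand, also fell (-2.4 ± 0.49 and -1.09 ± 0.26). Olfml3 (1.92 ± 0.23), Aif1, or Iba1 (0.93 ± 0.33), and the fractalkine receptor Cx3cr1 (0.81 ± 0.18) rose, while Csf1r, the receptor for the growth factor of microglia, was not called, with 139, 132 and 127 CPM in the controls and 166, 149 and 161 CPM after SE (0.26 ± 0.13). Of 11 transcription factors of myeloid cells 9 were upregulated, among them Spi1, or PU.1 (2.01 ± 0.26), Runx1 (2.13 ± 0.38) and Irf8 (1.97 ± 0.24). Markers of cells from the blood were scarce: the 9 measured genes of the leukocyte list summed to 4.15, 5.6 and 12.6 CPM after SE against 0.719, 1.2 and 2.46 CPM in the controls, and 3 of the 7 tested were called, 1 without Ctr replicate 2. Ccr2, the receptor of inflammatory monocytes, had 21 counts over the 3 SE libraries and none in the controls, at least 7.24-fold higher against 3 counts (fitted log2FC 5.86 ± 1.78, which is no bound). Arg1 had 65 counts against 2, a ratio of 33.6 with an exact 95% counting interval of 8.94 to 283, and there was no DEG among 5 genes of red blood cells. Aif1 was not called without Ctr replicates 2 or 3 or SE replicates 1 or 3 (log2FC 0.67 to 0.93). Ccr2 was not called without Ctr replicate 2 or SE replicate 1 (log2FC 5.28 to 5.84). Aif1 lost its call without both SE 36 h replicate 3 and Ctr 72 h replicate 2 (0.66) and with the label-number range as a factor (0.74). Ccr2 lost its call with limma-voom (3.65) and without the RUVr factor (5.87).

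Of 16 chemokine genes 11 were upregulated and 2 downregulated (median 3.51). Ccl2, which draws monocytes through Ccr2, had 1 count in the controls together and 16.2, 5.99 and 13.7 CPM after SE, a ratio of 554 (95% counting interval 99.1 to 21900). Ccl4 had 2 counts in the controls and 19.4, 10.2 and 18.1 CPM after SE, a ratio of 367 (101 to 3030). Ccl12 (6.43 ± 0.74), Cxcl16 (3.5 ± 0.46) and Cxcl1 (4.14 ± 0.95) rose as well. Cxcl12 and Cxcl14, chemokines of the resting tissue, fell by 1.26 ± 0.28 and 1.15 ± 0.14, and Cx3cl1, the neuronal ligand of Cx3cr1, was not called (-0.25 ± 0.18). Cxcl2 had 4 counts after SE and none in the controls and was not called. The log2FC became 5.41 for Cxcl1 without Ctr replicate 1, 7.05 for Ccl12 and 3.44 for Cxcl1 without Ctr replicate 2 and 5.67 for Ccl12 and 3.54 for Cxcl1 without SE replicate 1.

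The windows of Ccl2 and Cxcl1 are shown because NF-kB dimers are known to act on chemokine genes and because 5 of the 16 chemokine windows (31.2%) held the NF-kB motif on either strand, against 1.41% of all windows and 2.12% of those of upregulated DEGs. Both lie on the plus strand of GRCm39, at chr11:81926147-81926396 and chr5:91038844-91039093. The capitals mark the matches, 146 bases before the start of Ccl2 and 79 and 61 bases before that of Cxcl1.
Ccl2: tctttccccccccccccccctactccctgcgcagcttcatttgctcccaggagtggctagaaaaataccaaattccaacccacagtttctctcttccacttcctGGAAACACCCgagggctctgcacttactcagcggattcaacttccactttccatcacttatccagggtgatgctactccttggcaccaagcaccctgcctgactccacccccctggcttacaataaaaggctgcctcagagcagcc
Cxcl1: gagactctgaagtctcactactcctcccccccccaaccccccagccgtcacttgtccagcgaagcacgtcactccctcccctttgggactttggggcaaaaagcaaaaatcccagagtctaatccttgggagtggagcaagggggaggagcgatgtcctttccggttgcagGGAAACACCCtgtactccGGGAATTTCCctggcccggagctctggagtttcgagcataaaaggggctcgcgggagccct
Of the 18 genes of Toll-like receptor and NF-kB signalling, 11 were upregulated and none was downregulated. The receptors Tlr2 (5.45 ± 0.36), Cd14 (4.74 ± 0.54), Tlr1 (3.73 ± 0.38) and Tlr4 (3.02 ± 0.39) and the subunit Nfkb2 (2.75 ± 0.23) rose. The subunits Rela (0.64 ± 0.18) and Nfkb1 (0.66 ± 0.15) had small adjusted p values (0.0091 and 0.00161) but stayed just short of the log2FC threshold. That outcome depended on the setting. Nfkb1 was upregulated in 11 of 19 alternatives (log2FC 0.588 to 0.781 over all 19) and Rela in 5 of 19 (0.592 to 0.762).

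Of 23 genes of cytokines and their receptors 18 were upregulated and 1, Il18, was downregulated (-0.68 ± 0.16). Among the ligands, Lif had 33.9, 91.9 and 79.2 CPM after SE against 1.73, 1.25 and 1.48 CPM in the controls (5.53 ± 0.51), and Clcf1 had 1.37, 0.940 and 1.4 CPM in the controls and 28, 49.2 and 25.8 CPM after SE (4.79 ± 0.55). Il6 was at 0 in all 3 SE libraries and at 0.164 CPM or less in the controls. Tnf was at 0 in the controls and at 2.89, 1.89 and 1.08 CPM after SE, at least 28.3-fold higher against 3 counts. Il1b, at 0 in SE replicate 1, had 16 counts after SE and 1 in the controls (ratio 16.5, 95% counting interval 2.57 to 694, log2FC 3.58 ± 1.23), and its antagonist Il1rn had 140 counts against none, at least 48.3-fold higher. Downstream of the receptors, Osmr, the oncostatin M receptor (2.99 ± 0.27), Stat3 (2.5 ± 0.15) and the feedback inhibitor Socs3 (6.38 ± 0.59) rose. For Socs3 the libraries had 82.4, 80.0 and 56.3 CPM after SE against 1.08, 0.835 and 0.657 CPM in the controls. Tnfrsf12a, the receptor for TWEAK, rose by 4.79 ± 0.38, and Il6st, the shared signal transducer gp130, by 1.22 ± 0.11. Il18 was not called without SE replicates 2 or 3 (log2FC -0.65 to -0.59). Il1b was not called without Ctr replicates 1 or 3 or SE replicates 2 or 3 (log2FC 3.09 to 3.23). The log2FC became 5.41 for Il1b without Ctr replicate 2 and 4.18 for Il1b without SE replicate 1. Il18 lost its call with at least 10 counts required in every library (-0.62), without both SE 36 h replicate 3 and Ctr 72 h replicate 2 (-0.65), with thinned counts (-0.65) and with scaling by library totals (-0.56). Il1b lost its call without both SE 36 h replicate 3 and Ctr 72 h replicate 2 (3.21), with thinned counts (3.31), with limma-voom (2.31) and with the label-number range as a factor (3.16).

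All 18 genes of the interferon response were upregulated (median 3.42), and for all 18 SE replicate 2 was the lowest of the 3 SE libraries. The mean over the list lay 3.53, 1.67 and 2.9 above the control mean on the log2 scale in SE replicates 1, 2 and 3. Ifit1, an RNA-binding effector, had 2.01, 1.77 and 1.23 CPM in the controls and 33.4, 4.18 and 26.7 CPM after SE (log2FC 3.64 ± 0.72, adjusted p = 0.000789). Irf7, the factor that amplifies interferon, had 43.6, 8.43 and 23 CPM after SE against 2.16, 1.57 and 1.4 CPM in the controls (3.87 ± 0.64), and Oasl2 had 3.6, 1.93 and 2.14 CPM in the controls and 84.6, 11.8 and 47 CPM after SE (4.24 ± 0.69). SE replicate 2 still lay above all controls for each of these 3 genes. Of 13 genes of antigen presentation by MHC, 9 were upregulated, and SE replicate 2 was again the lowest in all 13. B2m, the light chain of MHC class I, had 162, 98 and 157 CPM after SE against 51.9, 51.2 and 51.3 CPM in the controls (1.43 ± 0.16), whereas the class II regulator Ciita was not called (0.32 ± 0.52) and H2-Aa reached 6.5 CPM only in SE replicate 3, the library with ganglion genes. Without SE replicate 2 the interferon list had 18 genes up and a median of 3.74. It had 16 up and a median of 2.88 without SE replicate 1, the highest SE library in 17 of the 18 genes. There were 17 up without SE replicate 3 (median 3.43) and 17 without Ctr replicate 1 (3.52). The log2FC became 3.04 for Ifit1 and 3.41 for Oasl2 without SE replicate 1.

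**Figure D3:**
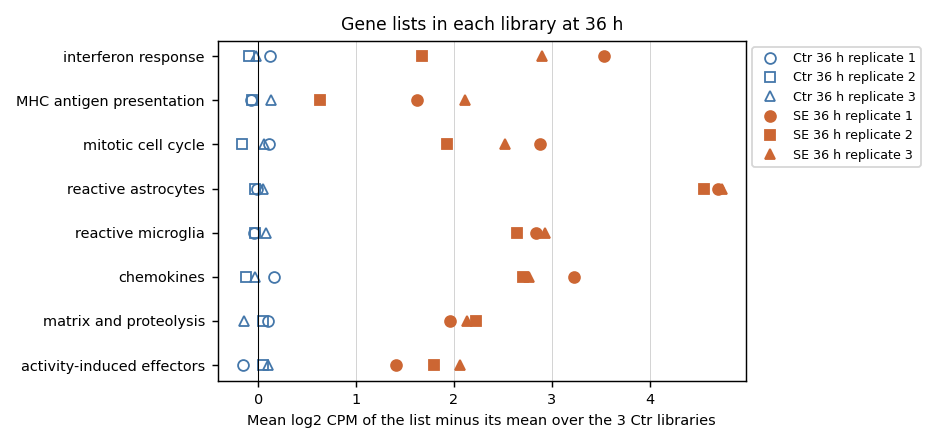
Mean log2 CPM of 8 gene lists in each library, as the difference from the mean of the 3 Ctr libraries, with blue open symbols for Ctr and orange filled symbols for SE. Among the SE libraries, replicate 2 (square) lies lowest for the interferon, MHC and mitotic lists, at 1.67, 0.627 and 1.93. It is also lowest, by less, for the reactive astrocyte, reactive microglia and chemokine lists, at 4.56, 2.64 and 2.71. SE replicate 1 is lowest for the matrix and the activity-induced effector lists, at 1.96 and 1.41.

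Genes of DNA replication and mitosis rose together. Of 19 genes 18 were upregulated and none was downregulated (median 2.58), and SE replicate 2 was the lowest in 16 of the 19. Mki67, the antigen Ki-67 of dividing cells, had 1.87, 1.62 and 1.56 CPM in the controls and 25.9, 10.7 and 26.3 CPM after SE (log2FC 3.69 ± 0.48, adjusted p = 1.02e-05). Top2a, the topoisomerase of dividing cells, had 37.2, 11.7 and 20.5 CPM after SE against 1.73, 1.36 and 2.3 CPM in the controls (3.7 ± 0.48). The kinases Cdk1 and Aurkb rose by 4.82 ± 0.92 and 4.46 ± 0.8, and the 4 helicase subunits of the list, Mcm2, Mcm3, Mcm5 and Mcm6, by 2.0 ± 0.24, 2.96 ± 0.29, 2.56 ± 0.32 and 2.24 ± 0.18. Plk1 was not called (0.65 ± 0.31). The log2FC became 4.1 for Cdk1 without Ctr replicate 2 and 5.92 for Cdk1 without Ctr replicate 3. The log2FC was 5.5 for Cdk1 with limma-voom.

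Most transcription factors of the first minutes after activity were not called. Of 18 immediate early factors 5 were upregulated and 1 was downregulated (median 0.233), and the number up was 3, 3 and 3 without Ctr replicate 2, Ctr replicate 3 and SE replicate 2. Fos had 45.3, 34 and 23 CPM in the controls and 48, 58.7 and 79.9 CPM after SE and was not called (0.88 ± 0.65, adjusted p = 0.33), and neither were Fosb (0.04 ± 0.78), Egr1 (0.36 ± 0.64) and Npas4 (-0.24 ± 0.88). Nr4a2, an orphan nuclear receptor, fell, with 35.8, 30.3 and 35.8 CPM after SE against 118, 141 and 135 CPM in the controls (-1.94 ± 0.57). The 5 that were up were Fosl1 (3.26 ± 0.6), Maff (2.91 ± 0.42), Atf3 (2.74 ± 0.71), Jun (1.41 ± 0.45) and Ier2 (1.02 ± 0.32), all of them members of the AP-1 and ATF families except Ier2. Of 14 effector genes induced by activity 7 were upregulated and none was downregulated (median 1.37). Inhba, which codes for the activin A subunit, had 7.48, 9.71 and 12.7 CPM in the controls and 232, 580.1 and 401 CPM after SE (log2FC 5.35 ± 0.76, adjusted p = 4.59e-05). Ptgs2, or cyclooxygenase 2, had 120.2, 238 and 157 CPM after SE against 9.35, 7.62 and 8.13 CPM in the controls (4.36 ± 0.77), Bdnf had 20.9, 28.7 and 29.7 CPM in the controls and 93.3, 234 and 139 CPM after SE (2.55 ± 0.54), and the pentraxin Nptx2 had 259, 376 and 685 CPM after SE against 34.4, 48.4 and 50.0 CPM in the controls (3.29 ± 0.68). In the first 3 of these genes SE replicate 2 was the highest, opposite to its place in the interferon list. Arc (0.36 ± 0.55) and Homer1 (0.59 ± 0.58) were not called. Of 12 feedback inhibitors of MAPK signalling 8 were upregulated, among them the phosphatase Dusp4 (2.54 ± 0.51). Nr4a2 was not called without SE replicate 2 (log2FC -1.87). Jun was not called without Ctr replicates 1, 2 or 3 or SE replicate 2 (log2FC 1.21 to 1.51). Ier2 was not called without Ctr replicates 2 or 3 or SE replicate 2 (log2FC 0.81 to 0.91). The log2FC became 3.65 for Atf3 without Ctr replicate 3 and 2.56 for Fosl1 without SE replicate 2. Ier2 lost its call with limma-voom (1.06).

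Of 17 genes of peptides and their receptors 7 were upregulated and none was downregulated. Gal, or galanin, had 0, 0.417 and 1.81 CPM in the controls and 31.5, 36.2 and 36.8 CPM after SE (5.68 ± 0.85), and Trh had 18.4, 32.3 and 40.1 CPM after SE against 0.647, 0.783 and 0.329 CPM in the controls (5.62 ± 0.88). Npy, known to damp glutamate release in the hippocampus, had 24.9, 25.2 and 35.7 CPM in the controls and 232, 176 and 233 CPM after SE (2.91 ± 0.29). The granin Scg2 had 932, 1528 and 808 CPM after SE against 188, 228 and 216 CPM in the controls (2.38 ± 0.39), and Vgf, a granin-like precursor, had 156, 155 and 178 CPM in the controls and 1297, 1269 and 1015 CPM after SE (2.87 ± 0.35). Sst (0.81 ± 0.34, adjusted p = 0.0819), Cck (-0.21 ± 0.24) and Vip (-0.46 ± 0.25) were not called. Calca and Tac1, peptides that sensory ganglia also make, were highest in SE replicate 3, and Tac1 was not called (1.34 ± 0.7). Crh, corticotropin-releasing hormone, was lowest there (1.77 CPM against 13.8 and 8.59 CPM in the other SE libraries). The log2FC became 7.19 for Gal without Ctr replicate 3. The log2FC was 6.77 for Gal with limma-voom and 6.24 for Trh with the label-number range as a factor.

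The window before the start of Vgf is shown for its full CRE motif TGACGTCA, the site of CREB, which 1.87% of all windows held. It lies on the plus strand of GRCm39 at chr5:137058880-137059129, with the motif in capitals 71 bases before the start.
Vgf: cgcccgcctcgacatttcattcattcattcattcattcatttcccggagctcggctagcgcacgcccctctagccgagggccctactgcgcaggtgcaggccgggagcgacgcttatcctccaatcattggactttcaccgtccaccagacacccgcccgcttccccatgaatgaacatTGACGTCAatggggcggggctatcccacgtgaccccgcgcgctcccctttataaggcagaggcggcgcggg
The motif was present in 1.67% of the windows of upregulated DEGs, and in 3 of the 17 windows of immediate early factors (17.6%).

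Of 18 genes of GABA receptors and chloride transport 12 were downregulated and none was upregulated (median -0.8), against a background of 8.78% down. Gabrd, the subunit of extrasynaptic receptors, had 3.33, 2.92 and 2.91 CPM after SE against 11.9, 13.2 and 11.5 CPM in the controls (log2FC -2.0 ± 0.31, adjusted p = 5.21e-05). Gabra5, an extrasynaptic subunit enriched in CA1, had 179, 194 and 185 CPM in the controls and 88.5, 64.4 and 64 CPM after SE (-1.36 ± 0.26). Slc12a5, the chloride exporter KCC2, had 412, 321 and 399 CPM after SE against 770.0, 814 and 775 CPM in the controls (-1.06 ± 0.16), whereas Slc12a2, the importer NKCC1, was not called (0.00 ± 0.13). Of 22 glutamate receptor genes 13 were downregulated and 1, Grm8, was upregulated (1.05 ± 0.4). Gria1, an AMPA receptor subunit, had 1400, 1527 and 1364 CPM in the controls and 707, 646 and 677 CPM after SE (-1.08 ± 0.24), Grin2b had 326, 284 and 309 CPM after SE against 662, 683 and 626 CPM in the controls (-1.1 ± 0.18), and Grm5 had 366, 361 and 357 CPM in the controls and 184, 137 and 150.0 CPM after SE (-1.21 ± 0.15). The libraries of the 2 groups were separate in all of these. The kainate subunits Grik1 to Grik4 were not called, and Grik5 fell by 0.81 ± 0.15. Grm8 was not called without Ctr replicates 1, 2 or 3, Ctr 72 h replicate 2 or SE replicates 1 or 2 (log2FC 0.89 to 1.09). Grm8 lost its call without both SE 36 h replicate 3 and Ctr 72 h replicate 2 (1.25), with thinned counts (1.05), with limma-voom (1.02), without the RUVr factor (1.07) and without the filter on low counts (1.05).

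Among 33 genes of voltage-gated potassium channels and their partners, 10 were downregulated and 1 was upregulated. Kcnip2, the partner KChIP2 of A-type channels, had 26.8, 23.9 and 35.3 CPM after SE against 162, 183 and 180.2 CPM in the controls (log2FC -2.61 ± 0.48, adjusted p = 0.000467). Kcnd2, the A-type channel Kv4.2 of CA1 dendrites, had 172, 191 and 155 CPM in the controls and 63.5, 75.8 and 65.5 CPM after SE (-1.34 ± 0.18), and Kcnip3, also known as DREAM, rose (1.41 ± 0.27). Kcnc2, of fast-spiking cells, fell by 1.52 ± 0.22, and the M-current gene Kcnq3 fell (-0.83 ± 0.18). Of 25 other potassium and HCN channel genes 8 fell and 4 rose. The leak channel Kcnk9 (TASK-3) had 54.1, 48.7 and 32.2 CPM after SE against 170.5, 178 and 179.8 CPM in the controls (-1.98 ± 0.36), and the GIRK subunits Kcnj9 and Kcnj3 fell by 1.48 ± 0.24 and 1.01 ± 0.17. Pex5l, the HCN channel trafficking protein TRIP8b, fell (-0.95 ± 0.29). Of 26 sodium and calcium channel genes 8 fell and none rose. Scn3b, a sodium channel beta subunit, had 319.9, 373 and 339.6 CPM in the controls and 128, 70.9 and 93.6 CPM after SE (-1.82 ± 0.24), and Scn2a fell by 0.75 ± 0.12. Scn8a had an adjusted p of 0.00385 but a log2FC short of the threshold (-0.59 ± 0.15) and is not counted. Of 20 cholinergic and monoamine genes 7 were downregulated and 1 was upregulated. The muscarinic receptor Chrm1, a target of pilocarpine, had 197, 138 and 163 CPM after SE against 339.9, 336 and 316 CPM in the controls (-0.99 ± 0.2), and Chrm4 had 28.2, 31.2 and 33.1 CPM in the controls and 8.0, 7.17 and 8.49 CPM after SE (-1.96 ± 0.3). Of 19 genes of synaptic vesicles and release 6 fell and none rose, among them Syn2 (-1.32 ± 0.22) and Cplx2 (-1.08 ± 0.22), with Snap25 not called (-0.28 ± 0.15). Pex5l was not called without SE replicates 1 or 2 (log2FC -0.92 to -0.91). Scn2a was not called without SE replicate 3 (log2FC -0.65). Scn2a lost its call without both SE 36 h replicate 3 and Ctr 72 h replicate 2 (-0.66) and with scaling by library totals (-0.62).

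**Figure D4:**
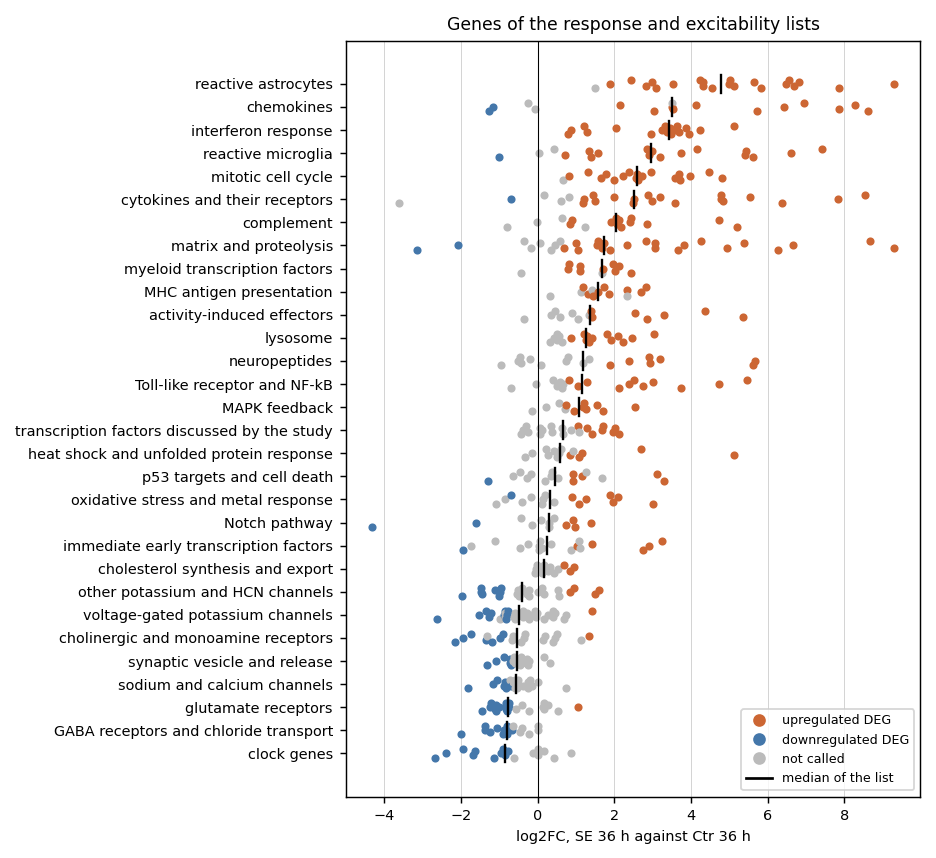
log2FC of each tested gene of 30 lists, 1 point per gene, in orange for upregulated DEGs, blue for downregulated DEGs and grey for genes not called, with the median of each list as a black line. Lists of glial and immune response lie to the right, with the reactive astrocyte list at a median of 4.78, and those of receptors, channels and clock genes to the left, the GABA list at -0.8.

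Of 12 pan-neuronal genes, Syt1 (-0.86 ± 0.13) and Eno2 (-0.76 ± 0.12) fell, and the neurofilaments Nefm (2.23 ± 0.4) and Nefh (1.68 ± 0.54) rose, while Rbfox3, or NeuN, had 185, 213 and 218 CPM after SE against 274, 263 and 268 CPM in the controls and was not called (-0.38 ± 0.16). Nefh had 71.5, 71.8 and 83.6 CPM in the controls and 97.7, 134 and 606 CPM after SE, highest in the library with ganglion genes, and was not called without it (0.61 with an adjusted p of 0.398). Of 12 genes of CA1 pyramidal identity 7 were downregulated and none was upregulated (median -1.15), and 5 were without SE replicate 3. Fibcd1 had 75.4, 36.7 and 47.1 CPM after SE against 462, 545 and 542 CPM in the controls (log2FC -3.28 ± 0.61, adjusted p = 0.000529), and Calb1, the calcium buffer calbindin, had 214, 224 and 227 CPM in the controls and 98.7, 93.5 and 70.5 CPM after SE (-1.34 ± 0.39). Wfs1 had 246, 399.9 and 447 CPM after SE against 172, 162 and 165 CPM in the controls (1.13 ± 0.61, adjusted p = 0.176) and was not called. Of the CA2 and CA3 genes 3 of 10 fell, among them Rgs14 (-1.69 ± 0.39), and Cacng5 rose (0.94 ± 0.29). The number that fell was 1 without Ctr replicate 2, 1 without SE replicate 1 and 1 without SE replicate 2. The markers of interneurons were near control for Gad1 (0.13 ± 0.14) and Gad2 (0.15 ± 0.15), whereas Erbb4 (-1.7 ± 0.15), Lamp5 (-1.73 ± 0.37) and the cannabinoid receptor Cnr1 (-1.01 ± 0.27) fell, with 5 interneuron genes down without SE replicate 3. Pvalb had 23.7, 23.8 and 27.1 CPM in the controls and 10.3, 7.17 and 25.4 CPM after SE (-0.81 ± 0.39) and was not called, at a level in SE replicate 3 within the range of the controls. Nefh was not called without Ctr replicates 1, 2 or 3 or SE replicate 3 (log2FC 0.61 to 1.74). Calb1 was not called without SE replicate 3 (log2FC -1.2). Cacng5 was not called without Ctr replicate 2 or SE replicate 3 (log2FC 0.79 to 0.82). Eno2 lost its call with scaling by library totals (-0.63). Nefh lost its call without both SE 36 h replicate 3 and Ctr 72 h replicate 2 (0.62), with the compared groups alone in the fit (1.91), without the RUVr factor (1.89) and with the label-number range as a factor (1.46). Cacng5 lost its call without both SE 36 h replicate 3 and Ctr 72 h replicate 2 (0.79).

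Oligodendrocyte genes were at different levels in the SE libraries. None of the myelin genes was called, with Mbp at 692, 875 and 1256 CPM after SE against 1319, 1648 and 1673 CPM in the controls (-0.71 ± 0.33), and the factors Olig1 and Olig2 rose (1.1 ± 0.24 and 1.33 ± 0.26). Without SE replicate 3, which has the highest myelin levels among the SE libraries, 2 of the 14 genes were downregulated. Of 7 genes of oligodendrocyte precursors and newly formed oligodendrocytes, 3 fell, among them Gpr17 (-1.79 ± 0.31), and Pdgfra was not called (0.38 ± 0.15). Of 15 vascular genes 5 were upregulated (8 without SE replicate 2), such as Pecam1 (1.61 ± 0.19) and Cdh5 (1.33 ± 0.2), and the efflux pump Abcb1a downregulated (-0.81 ± 0.23). Abcb1a was not called without SE replicate 3 (log2FC -0.64). Abcb1a lost its call without both SE 36 h replicate 3 and Ctr 72 h replicate 2 (-0.64).

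Of 17 clock genes 10 were downregulated and none was upregulated (median -0.85). The output factors Hlf, Dbp and Tef, which act on D-box sites, had 179, 187 and 155 CPM in the controls and 32.9, 27.9 and 21.6 CPM after SE (Hlf, log2FC -2.67 ± 0.29, adjusted p = 1.56e-06), 12.7, 6.62 and 10.4 CPM after SE against 58.6, 51.5 and 45.5 CPM in the controls (Dbp, -2.38 ± 0.31) and 511, 509 and 499.9 CPM in the controls and 177, 143 and 168 CPM after SE (Tef, -1.64 ± 0.14). Per3 (-1.93 ± 0.19), Ciart (-1.67 ± 0.29), Per2 (-0.95 ± 0.26), Per1 (-0.91 ± 0.26), Nr1d1 (-0.85 ± 0.16) and Nr1d2 (-0.78 ± 0.17) fell with them, and so did Npas2 (-1.14 ± 0.25), while Bmal1 (0.01 ± 0.18) and Clock (0.02 ± 0.1) were not called. The labels give no clock time, so a difference in the hour of sampling was not tested. Clock with Bmal1 acts on E-boxes, and the window of Ciart, which codes for a repressor of that pair, is shown because it holds 3 of them (CACGTG, in capitals), at 100, 42 and 28 bases before the start. It lies on the minus strand of GRCm39 at chr3:95789557-95789806 and is printed 5′ to 3′ along the gene.
Ciart: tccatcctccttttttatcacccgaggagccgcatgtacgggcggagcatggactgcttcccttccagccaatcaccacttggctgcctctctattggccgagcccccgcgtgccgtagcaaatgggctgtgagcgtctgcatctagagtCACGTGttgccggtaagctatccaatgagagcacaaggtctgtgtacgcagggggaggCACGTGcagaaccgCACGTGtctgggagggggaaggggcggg
An E-box was found in 5 of the 17 clock gene windows (29.4%), in 7.01% of all windows and in 7.69% of those of downregulated DEGs. Nr1d2 lost its call with scaling by library totals (-0.66).

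Stress and metabolic genes changed in part, set against a background of 12.6% up and 8.78% down over all genes tested. Of 14 genes of heat shock and the unfolded protein response 5 rose, with Hspb1 the largest and Hspa1a not called (-0.32 ± 0.89), and the endoplasmic chaperone Hspa5 had 522, 615 and 694 CPM after SE against 237, 270.3 and 313 CPM in the controls (1.16 ± 0.27). Of 16 genes of oxidative stress and metals 7 rose and 1 fell. Hmox1, heme oxygenase 1, had 6.11, 4.75 and 5.92 CPM in the controls and 21.5, 29.6 and 20.9 CPM after SE (2.1 ± 0.33), and Mt1 and Mt2, metallothioneins that bind zinc, rose by 1.96 ± 0.26 and 3.01 ± 0.75. Mt2 had 50.0 CPM in SE replicate 3 against 13.3 and 10.2 CPM in the other SE libraries. Among 16 p53 targets and death genes 5 rose and 1 fell, with Cdkn1a, the cell cycle inhibitor p21, at 55.2, 87.2 and 66.9 CPM after SE against 3.09, 7.46 and 13.6 CPM in the controls (3.13 ± 0.48) and the pro-apoptotic Bbc3 down (-1.3 ± 0.31). Of 15 genes of cholesterol synthesis and export 3 rose, none by more than 0.94. In the Notch pathway 4 of 12 genes rose, and Hes5, its transcriptional target, fell with 5.97, 3.6 and 6.24 CPM in the controls and 0.296, 0.158 and 0.285 CPM after SE (-4.33 ± 0.68). Of 21 transcription factors that the study itself discusses, a choice made on these same samples and so not independent, 8 rose and none fell, among them Rest (1.67 ± 0.21) and Nfe2l2 (1.29 ± 0.15). The log2FC became 1.96 for Mt2 without SE replicate 3. Mt2 lost its call without both SE 36 h replicate 3 and Ctr 72 h replicate 2 (1.96) and with limma-voom (2.77). The log2FC was 2.3 for Mt2 with the label-number range as a factor.

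Among DEGs whose log2 CPM averaged 1 or more, the 6 with the largest SD of log2 CPM over the 3 SE libraries were these. Sp7, or osterix, had 5.85, 23.6 and 1.2 CPM after SE against 1.29, 0.678 and 1.73 CPM in the controls (2.66 ± 0.73), and Syt10 had 0.935, 1.41 and 0.986 CPM in the controls and 5.11, 16.9 and 1.37 CPM after SE (2.7 ± 0.79), each highest in SE replicate 2. Sema3b had 2.15, 2.29 and 19.7 CPM after SE against 0.863, 1.36 and 1.15 CPM in the controls (2.48 ± 0.76), and Ahnak2 had 1.87, 2.5 and 9.53 CPM in the controls and 8.52, 8.2 and 61.8 CPM after SE (2.2 ± 0.73), each highest in SE replicate 3, the library with ganglion genes. The part of that RNA in the increase of these genes was not tested, and without the library their log2FC were 0.95 with an adjusted p of 0.382 and 0.89 with an adjusted p of 0.407. Oprk1, the kappa opioid receptor, was lowest in SE replicate 2 (3.48, 0.236 and 1.88 CPM against 5.74 to 7.72 CPM, log2FC -1.8 ± 0.64), and B230303A05Rik, a transcribed pseudogene, was lowest in SE replicate 3, with 2.59, 1.66 and 0.114 CPM after SE against 13.3, 13.2 and 14.2 CPM in the controls (-3.29 ± 0.54). Sp7 was not called without Ctr replicate 2 or SE replicate 2 (log2FC 1.27 to 2.32). Syt10 was not called without Ctr replicate 1 or SE replicate 2 (log2FC 1.46 to 2.59). Sema3b was not called without Ctr replicates 1 or 3 or SE replicate 3 (log2FC 0.95 to 2.48). Ahnak2 was not called without Ctr replicates 1 or 2, Ctr 72 h replicate 2 or SE replicate 3 (log2FC 0.89 to 2.53). Oprk1 was not called without Ctr replicates 1, 2 or 3 or SE replicates 2 or 3 (log2FC -1.88 to -1.31). The log2FC became 3.2 for Ahnak2 without Ctr replicate 3, -2.53 for Oprk1 without SE replicate 1 and 3.61 for Sp7 without SE replicate 3. Sp7 lost its call with the compared groups alone in the fit (3.09) and with limma-voom (2.38). Sema3b lost its call with the compared groups alone in the fit (2.86), with limma-voom (2.37), without both SE 36 h replicate 3 and Ctr 72 h replicate 2 (0.96) and without the RUVr factor (2.84). Ahnak2 lost its call with the compared groups alone in the fit (2.57), without both SE 36 h replicate 3 and Ctr 72 h replicate 2 (0.89), without the RUVr factor (2.54) and with the label-number range as a factor (1.98). Oprk1 lost its call with the compared groups alone in the fit (-1.78), without both SE 36 h replicate 3 and Ctr 72 h replicate 2 (-1.82), with the label-number range as a factor (-1.78) and with scaling by library totals (-1.67). Syt10 lost its call with limma-voom (2.02). The log2FC was 3.56 for Sp7 without both SE 36 h replicate 3 and Ctr 72 h replicate 2.

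Upregulated protein-coding DEGs were low in the controls, at a median of 4.91 CPM, against 51 CPM for the downregulated and 22.7 CPM for all protein-coding genes tested (2124, 1338 and 15224 genes). Their genes were shorter as well, with a median span of 22.8 kb against 30.5 kb and 26.9 kb, and a median exon length of 5.28 kb against 6.51 kb and 6.15 kb. The part of length and level in the calls was not tested.

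The SE effect was then set against that at 12 and 72 h, each with its own 3 SE and 3 Ctr libraries. It differed between 36 and 12 h in 696 genes (3.83% of those tested), of which 406 had a higher and 290 a lower log2FC at 36 h, and between 72 and 36 h in 954 genes (5.26%), of which 700 had a higher and 254 a lower log2FC at 72 h. These 2 numbers rest on few libraries: with 1 library of the compared groups removed, there were 214 to 1179 genes for the former (lowest without Ctr 36 h replicate 2 or 3, highest without SE 12 h replicate 1) and 453 to 1851 for the latter (lowest without Ctr 36 h replicate 1, highest without Ctr 72 h replicate 1). SE 12 h replicate 1 is another library with ganglion genes (743 CPM for the list, against 19.9 and 22.2 CPM in the other SE 12 h libraries). Ctr 12 h replicate 3 had 634 CPM for the CA2 and CA3 list, against 274 and 278 CPM in Ctr 12 h replicates 1 and 2. For the CA1 list it had 1380 CPM, against 2300 and 2010 CPM. The part of ganglion RNA and of such subfield differences in the differences between 36 and 12 h was not tested. The Ctr 72 h libraries were shallower than all 36 h libraries, with 11680209, 5793721 and 2663936 counts in replicates 1, 2 and 3. With counts thinned to equal totals, 481 genes differed between 72 and 36 h. In what follows a value is the log2FC at the later time minus that at the earlier time.

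Of the 18 immediate early factors 3 had a lower effect at 36 than at 12 h and none a higher one (background 1.60% and 2.24%). Fosb was at 125, 308 and 558 CPM in the SE libraries at 12 h and at 23.9 to 39.3 CPM in the SE libraries at 36 h (difference -4.29 ± 1.15, adjusted p = 0.0467). Hspa1a (-4.93 ± 1.23, adjusted p = 0.0355), Nts, or neurotensin (-4.05 ± 0.85, adjusted p = 0.0183), Tmco5 (-4.42 ± 0.67, adjusted p = 0.00203), Gm13630 (-3.75 ± 0.76, adjusted p = 0.0127), which overlaps the sodium channel gene Scn1a on the other strand, and Ccna1 (-3.42 ± 0.87, adjusted p = 0.035) were lower in the same way, and no DEG at 36 h was among these 6. Otof was lower at 36 than at 12 h (-4.74 ± 0.85, adjusted p = 0.00655), with 4.22, 14.3 and 7.41 CPM in the SE libraries at 12 h and at most 0.473 CPM at 36 h. Cd109 was higher at 36 h (3.86 ± 0.97, adjusted p = 0.0361), with 14.3, 9.25 and 22.1 CPM in the SE libraries at 12 h. Of the mitotic list 7 of 19 genes had a higher effect at 36 h and none a lower one (background 2.24% and 1.60%), among them Mki67 (3.25 ± 0.67, adjusted p = 0.0146) and Top2a (3.23 ± 0.68, adjusted p = 0.0158). Of the 18 lysosomal genes 11 had a higher effect, and of the homeostatic microglia list 9 of 13 had a higher and 1, Siglech, a lower one (-1.51 ± 0.4, adjusted p = 0.038). The difference of Fosb was not called without Ctr 12 h replicates 1, 2 or 3, Ctr 36 h replicates 1, 2 or 3, SE 12 h replicates 2 or 3 or SE 36 h replicates 1, 2 or 3 (-4.43 to -3.7). The difference of Hspa1a was not called without Ctr 12 h replicates 1, 2 or 3, Ctr 36 h replicates 1, 2 or 3, SE 12 h replicate 3 or SE 36 h replicates 1, 2 or 3 (-5.41 to -2.67). The difference of Nts was not called without Ctr 36 h replicate 2 or SE 36 h replicate 1 (-3.97 to -3.81). The difference of Ccna1 was not called without Ctr 12 h replicates 2 or 3, Ctr 36 h replicates 1, 2 or 3, SE 12 h replicate 3 or SE 36 h replicates 1 or 3 (-3.48 to -2.78). The difference of Cd109 was not called without Ctr 12 h replicate 3, Ctr 36 h replicates 1, 2 or 3, SE 12 h replicate 2 or SE 36 h replicates 1 or 3 (2.7 to 4.83). The difference of Top2a was not called without Ctr 36 h replicate 2 (3.05). The difference of Siglech was not called without Ctr 12 h replicates 1, 2 or 3, Ctr 36 h replicates 1, 2 or 3, SE 12 h replicate 3 or SE 36 h replicates 1, 2 or 3 (-1.66 to -1.27). The difference became -4.15 for Otof without SE 12 h replicate 2 and -3.83 for Tmco5 and -3.0 for Gm13630 without SE 12 h replicate 3. Fosb lost the call of its difference with thinned counts (-4.25), without the RUVr factor (-4.36) and with the label-number range as a factor (-3.69). Hspa1a lost the call of its difference with thinned counts (-4.77), with the label-number range as a factor (-4.12), without both SE 36 h replicate 3 and Ctr 72 h replicate 2 (-4.23), with the compared groups alone in the fit (-4.93) and with limma-voom (-3.52). Cd109 lost the call of its difference with thinned counts (3.63), with the label-number range as a factor (3.55), without both SE 36 h replicate 3 and Ctr 72 h replicate 2 (3.81) and with limma-voom (4.17). Ccna1 lost the call of its difference without the RUVr factor (-3.3), with the label-number range as a factor (-3.46) and with limma-voom (-3.17). Siglech lost the call of its difference without the RUVr factor (-1.52), with the label-number range as a factor (-1.51) and with limma-voom (-1.38). Gm13630 lost the call of its difference with limma-voom (-3.47). Top2a lost the call of its difference with limma-voom (2.97). The difference was -2.73 for Ccna1 without both SE 36 h replicate 3 and Ctr 72 h replicate 2.

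Of the 13 genes of homeostatic microglia 11 had a higher effect at 72 h and none a lower one (background 3.86% and 1.40%), as had 10 of 16 genes of astrocyte homeostasis. Siglech (3.6 ± 0.4, adjusted p = 0.000127) was at 14.1, 35.2 and 20.3 CPM in the SE libraries at 72 h, and P2ry12 had a difference of 2.81 ± 0.32, adjusted p = 0.000127. Btbd17 and the non-coding Gm2629 had a higher effect at 72 h too (4.25 ± 0.55, adjusted p = 0.000373 and 3.59 ± 0.51, adjusted p = 0.000597), with Btbd17 at 12, 11.3 and 15.3 CPM in the SE libraries at 72 h after 0.627 to 1.7 CPM in the SE libraries at 36 h. In the Ctr 72 h libraries Btbd17 had 14.3, 1.19 and 13.9 CPM, lowest in replicate 2. Other genes that were high at 36 h were lower at 72 h. Inhba was at 12.3, 18.7 and 75.6 CPM in the SE libraries at 72 h (-3.83 ± 1.01, adjusted p = 0.0374), Fndc9 at 3.19, 3.05 and 7.26 CPM in the SE libraries at 72 h (-4.45 ± 1.09, adjusted p = 0.0271), and Ankrd34c, Plaur and Alkal2 had differences of -4.06 ± 0.95, adjusted p = 0.0198, -3.63 ± 0.85, adjusted p = 0.0192 and -3.48 ± 0.79, adjusted p = 0.0152. In the Ctr 72 h group, replicate 2 had a sum of 1970 CPM for the ganglion list, and SE 72 h replicates 1 and 2 had 1080 and 576 CPM. SE 72 h replicate 1 also had 465 CPM for the dentate list, against 107 and 146 CPM in SE 72 h replicates 2 and 3. For the CA1 list it had 739 CPM, against 1340 and 1420 CPM. The part of ganglion RNA and of such subfield differences in the differences between 72 and 36 h was not tested. With both Ctr 72 h replicate 2 and SE 36 h replicate 3 left out, an alternative added after the values had been seen, 480 genes differed between 72 and 36 h. The difference of Inhba was not called without Ctr 36 h replicates 1, 2 or 3, Ctr 72 h replicate 3, SE 36 h replicates 2 or 3 or SE 72 h replicates 1 or 2 (-4.03 to -3.38). The difference of Fndc9 was not called without Ctr 36 h replicates 1 or 2, Ctr 72 h replicate 3 or SE 72 h replicates 1 or 2 (-4.63 to -4.07). The difference of Ankrd34c was not called without Ctr 72 h replicate 2 (-3.49). The difference of Plaur was not called without Ctr 36 h replicate 2 (-3.4). The difference became 4.92 for Btbd17, 4.57 for Gm2629 and -4.96 for Ankrd34c without Ctr 72 h replicate 1, 3.11 for Btbd17, 2.04 for Gm2629 and -3.03 for Plaur without Ctr 72 h replicate 2 and 4.18 for Gm2629 and -3.38 for Ankrd34c without Ctr 72 h replicate 3. It was -5.02 for Inhba without SE 72 h replicate 3. Gm2629 lost the call of its difference with the compared groups alone in the fit (2.6) and without the RUVr factor (2.64). Inhba lost the call of its difference with the compared groups alone in the fit (-3.92), with thinned counts (-4.04), with limma-voom (-3.91) and with the label-number range as a factor (-3.91). Fndc9 lost the call of its difference with thinned counts (-3.83), with limma-voom (-4.03) and with the label-number range as a factor (-5.07). Plaur lost the call of its difference with thinned counts (-3.28) and with limma-voom (-3.8). Alkal2 lost the call of its difference with thinned counts (-3.97), with limma-voom (-3.6) and with the label-number range as a factor (-2.72). Ankrd34c lost the call of its difference with limma-voom (-3.38), with the label-number range as a factor (-4.34) and without both SE 36 h replicate 3 and Ctr 72 h replicate 2 (-3.69). The difference was 2.75 for Btbd17, 1.96 for Gm2629 and -5.03 for Fndc9 without both SE 36 h replicate 3 and Ctr 72 h replicate 2, 3.58 for Btbd17 with the compared groups alone in the fit, 5.19 for Btbd17 with thinned counts, 3.61 for Btbd17 without the RUVr factor and 4.49 for Gm2629 and -4.55 for Plaur with the label-number range as a factor.

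**Figure D5:**
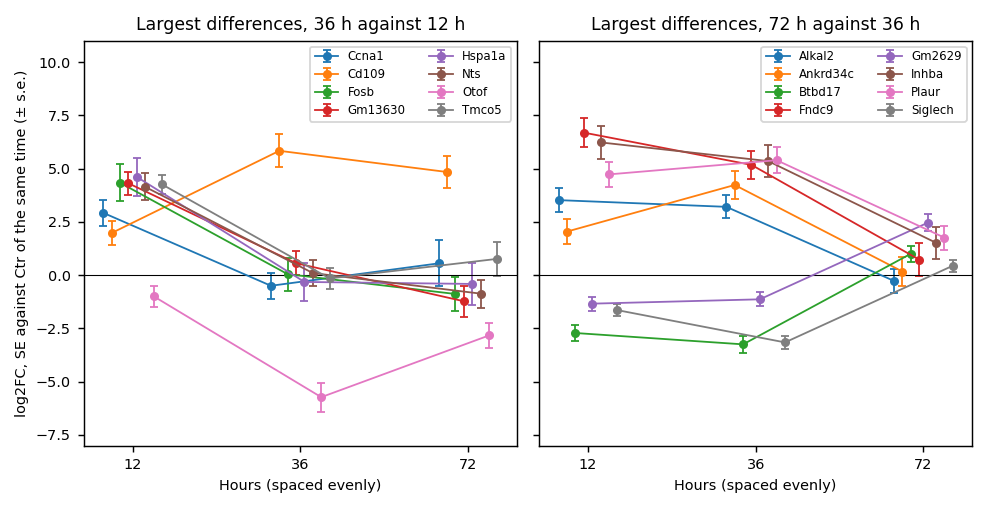
log2FC of SE against Ctr at 12, 36 and 72 h, with standard errors, for the 8 called genes with the largest difference between 36 and 12 h (left) and between 72 and 36 h (right) among those whose log2 CPM averaged 1 or more over the 12 libraries compared and whose groups did not overlap at one of the times at least. On the left 6 of the 8 genes, such as Fosb, lie between -0.5 and 0.56 at 36 h, and on the right Siglech and Btbd17 are below 0 at 36 h and were not called at 72 h (adjusted p = 0.247 and 0.0571).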

How the data were processed

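RNA of CA1 was sequenced in 24 libraries, of which the 36 h comparison uses 6, and all 24 entered the fit so that the groups share 1 estimate of the spread. Per the study's methods, poly(A) RNA (TruSeq RNA v2, which does not mark strand) was read in pairs, trimmed with Trim Galore 0.6.6, aligned to GRCm39 with STAR 2.7.8a and counted per gene without strand by HTSeq 0.13.5. The authors deposited raw counts for 18647 genes after lanes had been merged and low genes removed. Because strand was not used, reads from places where exons of genes on opposite strands overlap cannot be told apart. Against GENCODE M39, 18552 gene IDs matched and 95 did not (the authors used M26). In it 70.7% of the annotated genes tested overlapped a gene on the other strand. That share compares whole gene spans, introns included, and the overlap of exons alone was not measured.

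From these counts, genes were filtered with edgeR 4.0.16 (R 4.3.3), scaled by TMM and fitted with a robust quasi-likelihood model of 8 groups and 1 RUVr factor, with Benjamini-Hochberg adjustment over 18153 genes. Levels are CPM on TMM-scaled library sizes, and plots use log2 CPM with a prior count of 2. The standard error is the absolute log2FC divided by the root of the F statistic. On simulated data for the 36 h comparison (17315 genes), 63.5% of 192 genes changed by 1.5 on the log2 scale were recovered and 5 of 17123 others were called. The simulation changed far fewer genes than were called in the data. It drew the libraries of a group from the same means, with no ganglion RNA or other shared variation. These rates describe that setting alone. Motifs were searched in the 250 bases before each gene start, outside chromosome 18. Counting intervals and floors (3 counts) cover counting error only.

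Genes named are the 12 with the largest increase and the 12 with the largest decrease among DEGs whose log2 CPM averaged 1 or more and whose groups did not overlap, the 8 called genes with the largest difference to each other time (log2 CPM averaging 1 or more over the 12 libraries, no overlap at one of the times at least), the 6 DEGs with the largest SD of log2 CPM among the SE libraries, and, for 44 gene lists, called members with the largest changes and defining members that were not called. The comparison, lists and genes were chosen with earlier results of these data known. Alternatives were DESeq2 1.42.0, limma-voom (limma 3.58.1), other scalings and filters, no RUVr factor, thinned counts, the replicate number as a block, the range of the label number as a factor and each library of the compared groups, and Ctr 72 h replicate 2, left out in turn. One alternative, without both SE 36 h replicate 3 and Ctr 72 h replicate 2, was added after the data had been seen. Some genes are not reported here.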

Additional observations from a re-analysis of the deposited data

Results flagged for a closer look

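The effect of SE was compared between times by an interaction term in the same fit (edgeR, adjusted p of at most 0.05), and each value here is the log2FC at the later time minus that at the earlier time. Between 36 and 12 h 696 genes differed. Among the genes named above, the difference was positive for the following, 1.79 for Aif1, 0.89 for B2m, 1.65 for C1qa, 1.05 for C1qb, 1.52 for C1qc, 3.86 for Cd109, 5.51 for Cdsn, 0.78 for Csf1r, 1.42 for Ctsc, 1.37 for Ctsd, 1.05 for Ctsz and 0.97 for Cx3cr1. It was further 1.44 for Kcnj10, 1.70 for Mcm3, 2.37 for Mcm5, 1.45 for Mcm6, 3.25 for Mki67, 1.01 for Nr1d2, 1.36 for Olfml3, 1.57 for P2ry12, 2.56 for Selplg, 2.57 for Spp1, 2.73 for Tm4sf1 and 3.24 for Top2a. It was further 2.07 for Vim. On the negative side it was -2.02 for Bcan, -3.42 for Ccna1, -1.84 for Chrm4, -2.28 for Cyp4f15, -2.91 for Epop, -4.29 for Fosb, -1.99 for Gabrd, -3.75 for Gm13630, -2.69 for Hmox1, -4.93 for Hspa1a, -1.81 for Ier2 and -4.05 for Nts. It was further -4.74 for Otof, -1.40 for Per1, -1.42 for Scn3b, -1.51 for Siglech, -0.92 for Slc1a2, -1.46 for Slc6a11, -4.19 for Steap4 and -4.42 for Tmco5.

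Between 72 and 36 h 954 genes differed. Here the positive differences were 1.17 for Apoe, 0.97 for B2m, 1.86 for Bcan, 4.25 for Btbd17, 1.15 for C1qa, 1.07 for C1qc, 2.33 for Cd68, 1.58 for Csf1r, 0.84 for Ctsd, 1.20 for Cx3cr1, 1.44 for Cxcl14 and 1.71 for Cyp4f15. It was further 1.92 for Epop, 1.72 for Gja1, 3.59 for Gm2629, 2.58 for Gm48408, 2.08 for Gpr17, 1.94 for Hapln1, 1.46 for Hlf, 0.77 for Il18, 1.96 for Irf8, 1.09 for Kcnd2, 1.17 for Kcnj10 and 2.45 for Kirrel2. It was further 1.15 for Olfml3, 2.81 for P2ry12, 2.09 for Per3, 1.73 for Plk1, 2.38 for Selplg, 3.60 for Siglech, 1.01 for Slc1a2, 3.08 for Slc2a5, 1.5 for Slc6a11, 1.78 for Spi1 and 1.21 for Tef. The negative ones were -2.76 for Adamts1, -3.48 for Alkal2, -4.06 for Ankrd34c, -3.14 for Cd44, -4.45 for Fndc9, -2.31 for Hspb1, -3.83 for Inhba, -2.06 for Nefm, -1.10 for Pecam1, -3.63 for Plaur, -2.05 for Scg2 and -0.77 for Stat3. It was further -2.34 for Tm4sf1 and -2.15 for Vgf. Of these named genes, 24 of 45 lost the call between 36 and 12 h under 1 alternative or more, a left-out library included, and 33 of 49 did between 72 and 36 h, none with a change of direction. Among the latter, Cd44, Hspb1 and Nefm were highest of the Ctr 72 h libraries in replicate 2, which has ganglion genes (68.55, 42.63 and 1187 CPM). Cd68 was lowest there (0.17 CPM). Without both that library and SE 36 h replicate 3, their differences were -1.85, -1.14, -1.12 and 1.22 and were not called.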

How the results depend on the processing

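With 1 of the 6 compared libraries left out, the number of DEGs was 3241 to 3630, below the 3881 of the reported fit. That of upregulated DEGs was then 1908 to 2161 and that of downregulated DEGs 1333 to 1504. Without Ctr 72 h replicate 2, which lies outside the comparison, there were 4082 DEGs, 2378 up and 1704 down. A filter of at least 10 counts in every library, which tested 11913 genes, left 2480 DEGs and 1400 upregulated ones. An absolute log2FC of at least 1 left 930 downregulated DEGs, and no threshold gave 2604. The difference between 36 and 12 h held 696 genes, 1416 with DESeq2, 298 without the RUVr factor and 214 to 1179 when 1 library was left out. That between 72 and 36 h held 954 genes, 1464 with DESeq2, 499 with limma-voom, 423 without the RUVr factor, 452 with the compared groups only, 481 with thinned counts, 480 without both SE 36 h replicate 3 and Ctr 72 h replicate 2 and 453 to 1851 when 1 library was left out. The cause was not tested. No DEG shared with the reported fit had the opposite direction under any alternative. With the replicate number as a block there were 3880 DEGs (2262 up and 1618 down), 97.6% of the reported ones among them. Deviations of same-numbered libraries correlated at 0.157, 0.0315 and 0.172, and those of differently numbered ones at -0.185 to 0.0804. These values do not settle whether the number pairs libraries. The study compared the groups unpaired, and the reported fit did too. The direction turned in some genes that were not called at 36 h. The log2FC was 0.014 for Ccna1, -0.023 for Clock, -0.22 for Egr1, -0.12 for Fosb, -0.71 for Grik1, -0.56 for H2-Aa, -0.48 for Mmp2, -4.29 for Prph, -0.10 for Slc12a2 and 0.052 for Tmco5 without both SE 36 h replicate 3 and Ctr 72 h replicate 2. It was -0.024 for Slc12a2 with thinned counts. It was -0.049 for Bmal1 and -0.0038 for Fosb with limma-voom. It was -0.27 for Egr1, -0.41 for Fosb, -0.061 for Mmp2 and -0.0081 for Slc12a2 with the range of the label number as a factor. It was -0.056 for Fosb with the replicate block. With 1 library left out at a time, it ranged from -0.22 to 0.25 for Bmal1, -1.03 to 0.041 for Ccna1, -0.023 to 0.064 for Clock, -0.0007 to 4.30 for Cxcl2, -0.21 to 0.60 for Egr1, -0.098 to 0.23 for Fosb, -0.71 to 0.68 for Grik1, -0.56 to 2.99 for H2-Aa, -0.49 to 0.32 for Mmp2, -0.55 to 0.14 for Mmp9, -0.65 to 0.31 for Npas4, -0.063 to 0.33 for Nts, -4.29 to 4.22 for Prph, -0.10 to 0.10 for Slc12a2 and -0.44 to 0.071 for Tmco5. With the counts of the 6 libraries thinned to the same total there were 3812 DEGs.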

Other observations

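The following values were chosen after they had been seen. SE replicate 2 was the lowest of the 3 SE libraries in 18 of 18 interferon genes and 13 of 13 genes of antigen presentation. It was also the lowest in 16 of 19 mitotic and 15 of 18 lysosomal genes. Other lists had this order too, with 14 of 16 genes of astrocyte homeostasis, 12 of 16 of complement, 12 of 15 of cholesterol and 9 of 12 of CA1 identity. In the myelin and dentate lists it was lowest in 5 of 14 and 1 of 8 genes. It was the highest in 15 of 29 genes of matrix and proteolysis. The share over all genes tested was not measured. For the reactive astrocyte list the 3 SE libraries lay 4.70, 4.56 and 4.74 above the control mean on the log2 scale.

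Among the promoter windows, the AP-1 motif was found in 4 of 17 windows of interferon genes (23.5%) and 4 of 22 of reactive astrocyte genes (18.2%). It was in 5.10% of all windows and in 8.25% of those of upregulated DEGs. The STAT motif TTCNNNGAA was in 5 of 17 windows of neuropeptide genes (29.4%) and 4 of 12 of homeostatic microglia genes (33.3%), against 6.48% of all windows. These shares were picked among 44 lists and several motifs, and each rests on few windows. These shares are descriptions of the letters and of nothing more.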
